A study of Homo sapiens with 6 samples.

Results

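Cadherins and non-clustered protocadherins are cell surface proteins that hold cells to each other or pass signals between them. The genes described here are those whose name in the count table is CDH or PCDH followed by a number, with or without a final X, which gave 35 of the 57341 named genes. The rule took in the classical cadherins of type I and type II, a few CDH genes that are not classical cadherins (CDH13, CDH16, CDH17, CDH23 and CDH26), and protocadherins that lie outside the large gene clusters. Their RNA was measured in 6 libraries of H295R, an established human adrenocortical carcinoma (ACC) cell line. In this collection, 3 libraries are labelled as parental H295R cells and 3 as H295R-PM-Ptc+, a subpopulation sorted by flow cytometry from the same line for surface Ptch1, a Hedgehog receptor, and expanded in culture. Both were grown in DMEM/F12 with NuSerum and ITS+ and had no treatment, and whether the replicates came from separate cultures or sorts was not stated in the labels, so the p-values measure the spread between these libraries only. The comparison asks which genes differ in RNA between the parental cells and the Ptch1-positive subpopulation.

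The group names were checked before any direction was drawn. Counts of the targeted gene PTCH1 were 441, 559 and 579 under the label H295R against 248, 326 and 319 under the label H295R-PM-Ptc+ (log2 fold change -0.81, SE 0.147, edgeR adjusted p = 0.0207), which goes against the labels. That adjusted p was 0.0799, 0.0921 and 0.0618 without H295R replicate 2, H295R replicate 3 and H295R-PM-Ptc+ replicate 2, at log2 fold changes of -0.78, -0.74 and -0.86, and 1.72e-06 with the replicate number as a block. Each of the 6 columns of normalised values in the study's supplementary table matched a deposited column of equal replicate code under the opposite group name. The match was made over the well-counted ones among 942 genes. Which naming is correct cannot be read from the counts, and every direction given here turns if the names are exchanged. Groups are therefore called by their labels in the deposited table, and log2 fold changes are positive where the H295R-PM-Ptc+-labelled libraries are higher. The libraries held 23264403 to 25813247 counts each. Replicate 1 of both groups stood apart from the other replicates on the second principal component (27.6% of the variance, the first holding 45.7% and parting the groups). All 8 markers of adrenal cortex passed the filter on low counts, with summed levels of 880 to 1160 CPM (counts scaled by library size) in the H295R-labelled libraries and 958 to 1220 in the others. Of these, CYP21A2 was higher in the H295R-PM-Ptc+-labelled libraries (log2 fold change 0.88, edgeR adjusted p = 0.0067), where 2.42% of all tested genes were. With the block alone, STAR was higher (0.41, adjusted p = 3.91e-06) and CYP11A1 lower (-0.24, 0.001), beside 22.5% of all genes that passed in either direction. Of the markers of other cell types, 1 of 5 for fibroblasts (COL1A1), 1 of 4 for chromaffin cells (CHGA), 0 of 5 for endothelium and 0 of 4 for leukocytes passed this filter. Those with no counts in any library were LUM, DBH, PNMT, CLDN5, PTPRC, CD68 and MS4A1. The summed levels of all listed markers of each type were 8.03 to 9.29 CPM against 9.23 to 11.2 for fibroblasts, 0.787 to 0.809 against 1.04 to 1.53 for chromaffin cells, 0.197 to 0.293 against 0.313 to 0.605 for endothelium and at most 0.0432 for leukocytes, and their part in the results was not tested.

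Classical cadherins span the membrane and bind the same or a related cadherin on the next cell through calcium-dependent extracellular repeats, while their tails bind beta-catenin or plakoglobin and p120 catenins, which tie them to alpha-catenin and actin. CDH1 encodes E-cadherin of epithelia and CDH2 encodes N-cadherin, which is found in neurons, mesenchymal cells and the adrenal cortex. The delta protocadherins have more extracellular repeats and tails that do not bind beta-catenin, and are best known from the developing brain, where their adhesion is weak and takes part in cell sorting and axon growth.

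The annotated starts of the RNAs are shown for the most abundant member, CDH2, and for CDH12 and PCDH7, which differed between the groups. The sequences are RefSeq promoters (GRCh38.p14) of 300 bases, which lie mostly before an annotated start and end shortly after it, on the coding strand, 5′ to 3′, with CpG dinucleotides in capitals. For genes with several annotated starts, the one nearest to the start of the gene used in counting is printed. The regions are chr18:28177081-28177380 (minus strand) for CDH2, chr5:22853295-22853594 (minus strand) for CDH12 and chr4:30720119-30720418 (plus strand) for PCDH7.
CDH2: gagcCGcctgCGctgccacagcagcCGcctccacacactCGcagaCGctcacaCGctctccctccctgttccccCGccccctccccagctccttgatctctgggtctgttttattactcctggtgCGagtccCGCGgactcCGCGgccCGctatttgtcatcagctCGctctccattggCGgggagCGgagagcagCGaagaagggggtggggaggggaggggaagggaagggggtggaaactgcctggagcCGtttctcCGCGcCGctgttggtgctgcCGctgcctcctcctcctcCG
CDH12: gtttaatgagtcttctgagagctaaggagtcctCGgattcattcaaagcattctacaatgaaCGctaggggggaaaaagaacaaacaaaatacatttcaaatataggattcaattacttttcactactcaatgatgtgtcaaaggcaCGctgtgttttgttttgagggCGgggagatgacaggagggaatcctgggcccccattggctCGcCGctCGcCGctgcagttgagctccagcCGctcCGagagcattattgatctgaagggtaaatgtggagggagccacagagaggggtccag
PCDH7: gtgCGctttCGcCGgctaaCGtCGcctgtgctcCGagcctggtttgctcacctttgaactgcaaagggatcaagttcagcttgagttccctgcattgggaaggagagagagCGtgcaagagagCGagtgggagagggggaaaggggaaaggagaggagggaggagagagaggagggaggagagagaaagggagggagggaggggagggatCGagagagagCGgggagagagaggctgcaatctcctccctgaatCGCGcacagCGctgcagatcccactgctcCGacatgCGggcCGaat

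The CDH2 promoter held 23 CpG and 67.0% G and C, above the medians of 14 CpG and 58.7% over 35116 promoters in the table. The PCDH7 promoter held 16 CpG and 60.3% G and C, and the CDH12 promoter 10 CpG and 48.3%. The table held promoters for 22 of the 35 genes, with 35 annotated starts in all. On either strand, the letters CANNTG, the general E-box that includes the sites of the Snail and ZEB repressors, were in 23 of these 35 promoters and in 68.7% of all promoters. The narrower E-box CACCTG, which is a form of CANNTG, was in 4 of 35 and in 20.6% of all promoters. The letters GACCACCCA, bound by the GLI factors of the Hedgehog pathway, were in 0 of 35 and in 0.236% of all, and TATAAA was in 5 of 35 and in 11.5% of all. None of these letters was in the 3 printed promoters, apart from 1 CANNTG in that of CDH12.

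Few members made up most of the cadherin RNA of these cells. Of the 35 genes, 16 had enough counts to be tested and 19 did not. Levels of different genes are compared per length, as RPKM, which is CPM per kilobase of exon. CDH2 had the highest mean over the 6 libraries at 28.0 RPKM, before CDH24 (9.34), CDH12 (7.19), PCDH18 (5.52), PCDH1 (4.73) and CDH11 (4.02). All other members lay below 1, led by CDH10 at 0.906 and PCDH7 at 0.672 RPKM. The means of the groups were 32.8 ± 5.59 RPKM for CDH2 in the H295R-labelled libraries and 23.2 ± 4.18 in the others (SD, n = 3 each), so CDH2 ranked above every other member in both groups. Behind it the order differed between the groups. In the H295R-labelled libraries, CDH24 (8.66 ± 0.221 RPKM) stood above PCDH18 (5.43 ± 0.223), PCDH1 (4.81 ± 0.328), CDH12 (4.73 ± 1.14) and CDH11 (4.12 ± 0.754), and the means of PCDH18, PCDH1 and CDH11 lay within 1 SD of that of CDH12. In the H295R-PM-Ptc+-labelled ones, CDH24 and CDH12 (9.66 ± 0.696 RPKM) did not differ beyond the spread of CDH12, and PCDH18 followed at 5.61 ± 0.230.

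**Figure D1:**
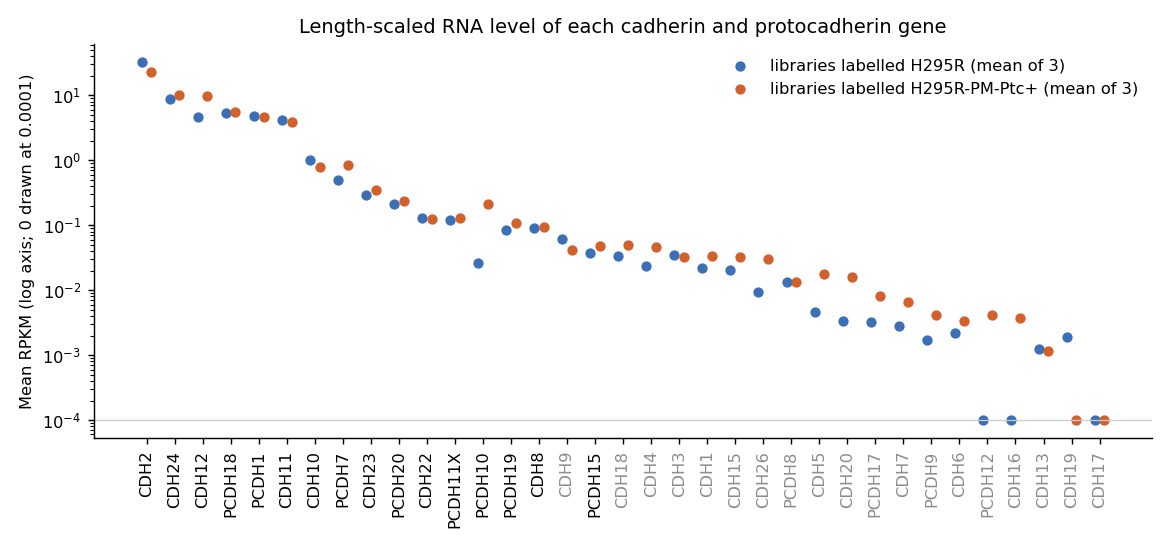
Mean RNA level of all 35 genes in RPKM on a log axis, in order of their mean over the 6 libraries, with a point for each group of 3 libraries and values of 0 drawn at 0.0001. Names in grey are the 19 genes with too few counts to test. CDH2 lies at the top in both groups (32.8 and 23.2 RPKM), CDH12 is higher in the H295R-PM-Ptc+-labelled libraries (4.73 and 9.66), and the widest gap among the tested genes is that of PCDH10 (0.0266 and 0.214).

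Several members known from other tissues were not detected at this depth. CDH17, the liver-intestine cadherin, had no counts in any library, and CDH6, CDH7, CDH13, CDH16, CDH19, PCDH8, PCDH12 and PCDH17 had at most 3 counts in every library, the level taken here as not detected, which equals 0.117 to 0.130 CPM. A further 10 genes, CDH1, CDH3, CDH4, CDH5, CDH9, CDH15, CDH18, CDH20, CDH26 and PCDH9, had more than 3 counts in at least 1 library but at most 10 and were not tested. Among them CDH1, the E-cadherin gene, held 4, 3 and 3 counts in the H295R-labelled libraries and 5, 5 and 5 in the H295R-PM-Ptc+-labelled ones. With 0.136 ± 0.0276 and 0.204 ± 0.0105 CPM (SD, n = 3 each), CDH1 lay near this floor in all 6 libraries, and no difference can be told at this depth. CDH5, the cadherin of endothelium, reached 5 counts at most.

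Of the 16 tested members, 3 were higher in the H295R-PM-Ptc+-labelled libraries with an adjusted p under 0.05, where 2.42% of all 16710 tested genes were. These were PCDH10, CDH12 and PCDH7. None was lower at this threshold by edgeR, where 1.32% of all genes were, although at an unadjusted p under 0.05 there were 4 higher and 1 lower (CDH2), beside 9.6% and 7.67% of all genes. The lower count was 1 by DESeq2, beside 2.08% of all genes, and 0 by limma-voom. In both directions together 3.73% of all genes passed. The log2 fold change was positive for 11 of the 16 and negative for 5, with a median of 0.11 against 0.00 over all tested genes. The 3 libraries of each group did not overlap for 6 of the 16 (PCDH10, CDH12, PCDH7, CDH24, CDH23 and CDH2), beside 23.5% of all genes. With the replicate number as a block in the fit, 5 of the 16 passed, CDH24 being added on the higher and CDH2 on the lower side, but so did 22.5% of all genes. The 16 genes are not a sample of all 35, since a gene had to reach enough counts in at least 1 group to be tested. In bulk RNA, a higher level per cell and a larger share of cells that express a gene cannot be told apart.

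**Figure D2:**
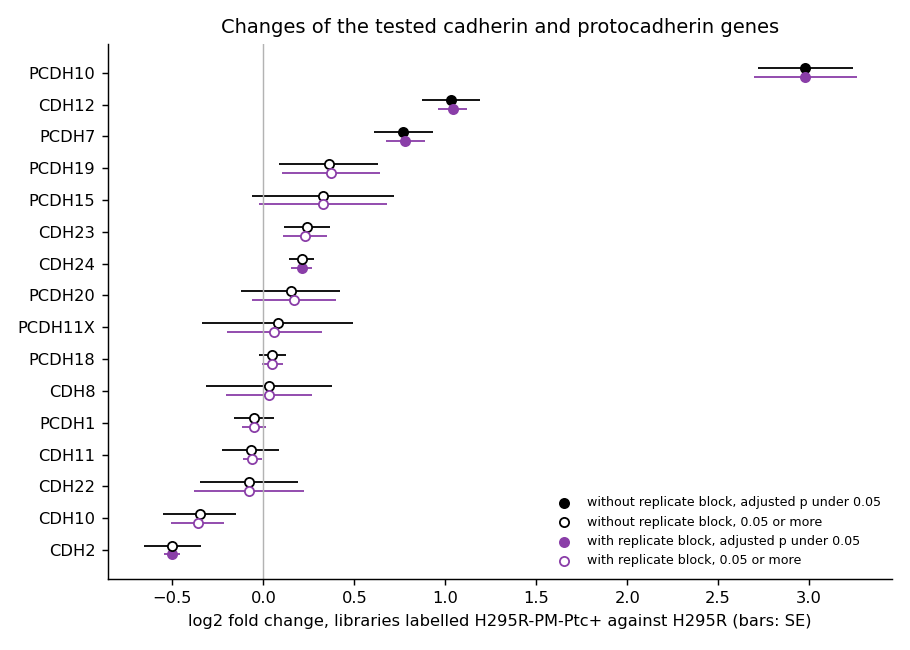
Log2 fold change of the 16 tested members, H295R-PM-Ptc+-labelled libraries against H295R, without (black) and with (purple) the replicate number as a block, with bars for the standard error and filled points for an adjusted p under 0.05. PCDH10 (2.98), CDH12 (1.03) and PCDH7 (0.77) are filled in both fits, and CDH24 (0.21) and CDH2 (-0.50) in the fit with the block alone.

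Among the type I cadherins, CDH2 was the 1 tested member of 5. It lies on chromosome 18 from 27950966 to 28177446 (GRCh38). It held 3121, 4508 and 4437 counts in the H295R-labelled libraries and 2329, 3215 and 2871 in the H295R-PM-Ptc+-labelled ones, which are 131, 177 and 179 CPM against 91.1, 129 and 124. The groups did not overlap, though by a narrow margin, and replicate 1 was the lowest library of both. The log2 fold change was -0.50 (SE 0.158), which did not pass without the block (adjusted p = 0.132). Each of the 3 same-numbered pairs was lower in the H295R-PM-Ptc+-labelled library, and with the block the same log2 fold change had an SE of 0.0439 and an adjusted p of 7.12e-07. CDH2 also passed with no filter on low counts (0.00729), with DESeq2 (0.0453), without the library labelled H295R replicate 1 (log2 fold change -0.64, adjusted p = 0.0252) and without replicate 1 of both groups (-0.49, 1.64e-04). It did not pass with limma-voom (0.140), relative log expression factors (0.131) or at least 10 counts in every library (0.142), nor without any 1 of the other 5 libraries (0.185 to 0.339). The study drew CDH2 into its gene lists on these same libraries, as it did CDH10, CDH12 and CDH24, so their differences are not independent of that choice.

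The type II cadherins held 6 tested genes of 13, of which 1 passed. CDH12, a type II cadherin known mainly from the brain, lies on chromosome 5 from 21750673 to 22853622. The H295R-labelled libraries held 486, 833 and 771 counts of it and the H295R-PM-Ptc+-labelled ones 1353, 1442 and 1415, or 20.3, 32.8 and 31.2 CPM against 52.9, 58.0 and 61.1. The lowest library labelled H295R-PM-Ptc+ thus stood well above the highest labelled H295R. The log2 fold change was 1.03 (SE 0.160, adjusted p = 0.00988), a fold of 2.04, and it rose in 3 of 3 pairs. When single libraries were left out, its log2 fold change lay between 0.84 and 1.15 and the adjusted p stayed at or below 0.0491.

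CDH24, a type II cadherin that binds catenins, lies on chromosome 14 from 23047062 to 23057538 and varied little within each group. It had 783, 800 and 817 counts in the H295R-labelled libraries and 969, 938 and 860 in the others, or 32.8, 31.5 and 33.0 against 37.9, 37.7 and 37.2 CPM. All 3 H295R-PM-Ptc+-labelled libraries were above all 3 labelled H295R, at a log2 fold change of 0.21 (SE 0.0691). The adjusted p was 0.144 without and 0.0142 with the block.

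CDH10, a close relative of CDH12 located 2.74 Mb away on the same chromosome (24487100 to 24644978), was not higher with it. Its counts were 109, 85 and 81 in the H295R-labelled libraries and 91, 66 and 58 in the H295R-PM-Ptc+-labelled ones, or 4.56, 3.35 and 3.28 against 3.56, 2.65 and 2.51 CPM. The groups overlapped, while each same-numbered pair was lower in the H295R-PM-Ptc+-labelled library, and the log2 fold change was -0.35 (SE 0.201, adjusted p = 0.424, and 0.0911 with the block). CDH18 and CDH9, at 2.28 and 5.13 Mb from CDH12, and CDH6, at 9.44 Mb, had too few counts to test.

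The other tested type II cadherins showed no difference beyond their spread. CDH11, the osteoblast cadherin, which is also found in mesenchymal cells, is added here for its level, after its values were seen. It had 43.5, 59.8 and 62.0 CPM in the H295R-labelled libraries and 42.9, 57.5 and 57.4 in the H295R-PM-Ptc+-labelled ones (log2 fold change -0.07, SE 0.155, adjusted p = 0.884). Here too replicate 1 was lowest in both groups, by more than the groups differed. CDH8 and CDH22 stayed between 13 and 39 counts per library, with log2 fold changes of 0.03 and -0.08 and standard errors of 0.345 and 0.268, so that small changes were not detectable at this depth.

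Among the delta-1 protocadherins, 3 of 4 genes were tested and PCDH7 rose. It lies on chromosome 4 from 30720415 to 31146805. It had 111, 167 and 174 counts in the H295R-labelled libraries and 242, 256 and 263 in the H295R-PM-Ptc+-labelled ones, which are 4.65, 6.57 and 7.04 against 9.47, 10.3 and 11.4 CPM. The groups did not overlap, and the library labelled H295R replicate 1 was again the lowest. The log2 fold change was 0.77 (SE 0.163, adjusted p = 0.0389), a fold of 1.70. This call rested on nearly all libraries, since the adjusted p was 0.0958 without H295R replicate 2, 0.0695 without H295R replicate 3, and 0.0554, 0.123 and 0.154 without H295R-PM-Ptc+ replicates 1, 2 and 3, while it was 0.0271 without H295R replicate 1 and 8.58e-05 with the block.

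PCDH1, a delta-1 protocadherin known from airway epithelium, was among the 5 most abundant members and did not pass. It had 26.2, 29.0 and 30.0 CPM in the H295R-labelled libraries and 24.5, 26.2 and 31.7 in the others, from 627 to 741 counts, with a log2 fold change of -0.05 (SE 0.109, adjusted p = 0.879). The lowest and the highest of the 6 libraries were both labelled H295R-PM-Ptc+. PCDH11X, with 21 to 64 counts, had a log2 fold change of 0.08 and the largest standard error of the tested members (0.415). It has a near-identical copy on another chromosome, so its counts are uncertain.

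The largest fold change among the tested members was in the delta-2 protocadherin PCDH10, a gene known to be silenced by DNA methylation in several carcinomas. It lies on chromosome 4 from 133149315 to 133208606. The H295R-labelled libraries held 7, 6 and 7 counts of it, and the H295R-PM-Ptc+-labelled ones 46, 58 and 55, or 0.293, 0.236 and 0.283 against 1.80, 2.33 and 2.38 CPM. The libraries within a group lay close together compared with the gap between groups. The log2 fold change was 2.98 (SE 0.259, adjusted p = 6.4e-04), a fold of 7.88, and it lay between 2.89 and 3.09 when single libraries were left out, where the adjusted p stayed at or below 0.00663. PCDH10 passed the filter on low counts only through the group where it is high, and it was not tested where every library had to hold at least 10 counts. It was still a scarce RNA in the higher group, at 0.214 ± 0.0316 RPKM (SD, n = 3) against 9.66 ± 0.696 for CDH12.

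PCDH18, the delta-2 protocadherin next to PCDH10 among the members on chromosome 4 (137518918 to 137532494, 4.37 Mb away), was far more abundant and did not pass. It had 34.6, 37.0 and 37.3 CPM in the H295R-labelled libraries and 35.7, 38.1 and 38.6 in the H295R-PM-Ptc+-labelled ones, from 826 to 948 counts. The ranges of the groups overlapped (log2 fold change 0.05, SE 0.0745, adjusted p = 0.823). PCDH19, the third tested delta-2 gene, which is mutated in a form of epilepsy, had 15 to 30 counts and a log2 fold change of 0.36 (SE 0.272, adjusted p = 0.559).

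**Figure D3:**
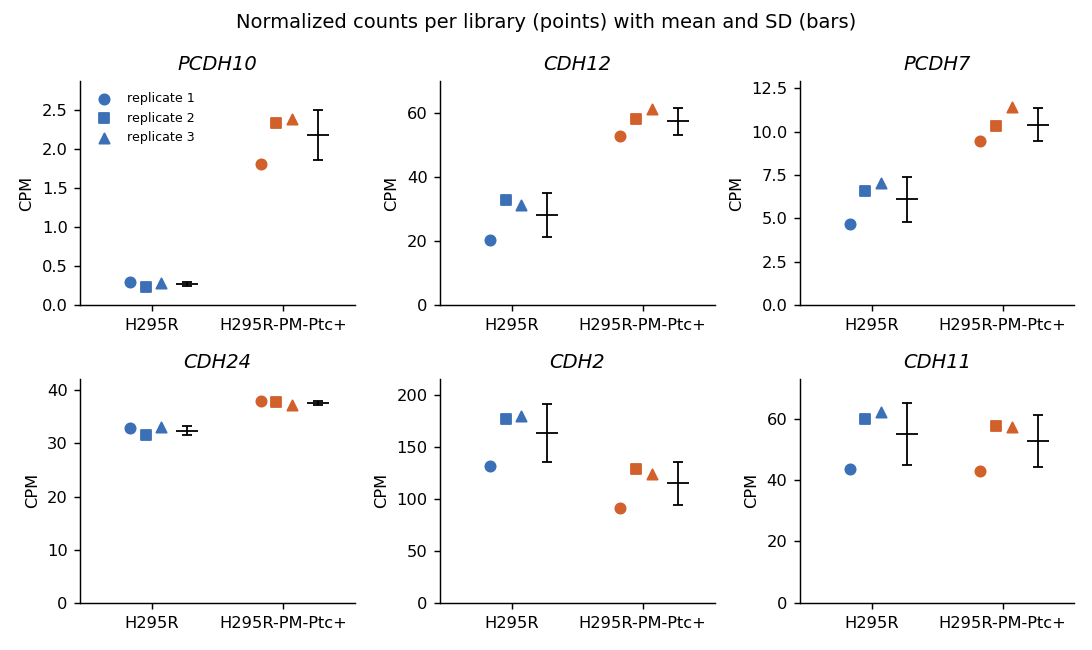
Normalised counts (CPM, linear axes from 0) of 6 members in each library, with replicates 1, 2 and 3 as circle, square and triangle, blue for the H295R-labelled libraries and orange for the H295R-PM-Ptc+-labelled ones, and black bars for the mean and SD of each group (n = 3). The groups lie apart for PCDH10, CDH12, PCDH7, CDH24 and CDH2 and overlap for CDH11, and replicate 1 is the lowest library of both groups for CDH12, PCDH7, CDH2 and CDH11.

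Of the remaining members, CDH23 and PCDH15 encode the partners of the tip link between stereocilia of hair cells. CDH23 had 130, 136 and 124 counts in the H295R-labelled libraries and 167, 137 and 153 in the others, with no overlap by a margin of 1 count, and its log2 fold change of 0.24 (SE 0.128) did not pass (adjusted p = 0.398). PCDH15, at 8 to 25 counts, and PCDH20, at 25 to 53 counts, had log2 fold changes of 0.33 and 0.15 (adjusted p = 0.749 and 0.854).

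The shares of CDH2 and CDH12 in the cadherin RNA did not overlap between the groups, while its sum did. Summed over the 35 genes, the level was 54.2, 67.3 and 68.5 RPKM in the H295R-labelled libraries and 53.4, 63.7 and 63.9 in the H295R-PM-Ptc+-labelled ones, with replicate 1 lowest in both. CDH2 made up 48.7, 53.2 and 53.0% of this sum in the H295R-labelled libraries and 34.4, 41.0 and 39.2% in the others. The share of CDH12 was 6.32, 8.20 and 7.67% against 16.7, 15.3 and 16.1%. The ratio of CDH12 to CDH2, in which depth and library scaling cancel, was 0.143 ± 0.0121 in the H295R-labelled libraries and 0.423 ± 0.0560 in the H295R-PM-Ptc+-labelled ones (SD, n = 3 each). This pair was chosen after its values were seen, so the ratio is a description with no test. Every library labelled H295R-PM-Ptc+ had a higher ratio (0.484, 0.374 and 0.411) than every library labelled H295R (0.130, 0.154 and 0.145).

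Genes near the changed members were looked at as a description, with the 10 nearest tested genes on either side. The farthest of them started 10.5 Mb from CDH12, 7.89 Mb from PCDH7, 6.54 Mb from CDH2 and 6.15 Mb from PCDH10. For PCDH7 these 20 genes had a median log2 fold change of 0.00 and a range from -0.33 to 0.63, below that of PCDH7 itself, and none had an adjusted p under 0.05. Around CDH2 the median was 0.00, the range -0.76 to 0.51, and none passed. Around CDH12 the median was 0.14, 14 of the 20 had a positive log2 fold change, and 2 of the 20 passed, in opposite directions. HSPD1P1, a pseudogene of HSPD1 within the span of CDH12, whose counts are uncertain since multiply mapped reads were counted, was lower (-0.43, adjusted p = 0.0276), while RP11-774D14.1, 1.14 Mb from CDH12, was higher with 4, 2 and 1 counts against 15, 12 and 14 (log2 fold change 2.50, adjusted p = 0.0196). RP11-774D14.1 passed the filter on low counts only through the group where it is high. Around PCDH10 the median was -0.06, and 1 of the 20 passed, RP11-138I17.1 at 3.65 Mb (0.94, adjusted p = 0.0426). These 3 neighbours were named after their values were seen, and when single libraries were left out their adjusted p reached 0.138 for HSPD1P1, 0.0916 for RP11-774D14.1 and 0.154 for RP11-138I17.1. Over the 16 tested members the median of the neighbours lay between -0.08 and 0.14.

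**Figure D4:**
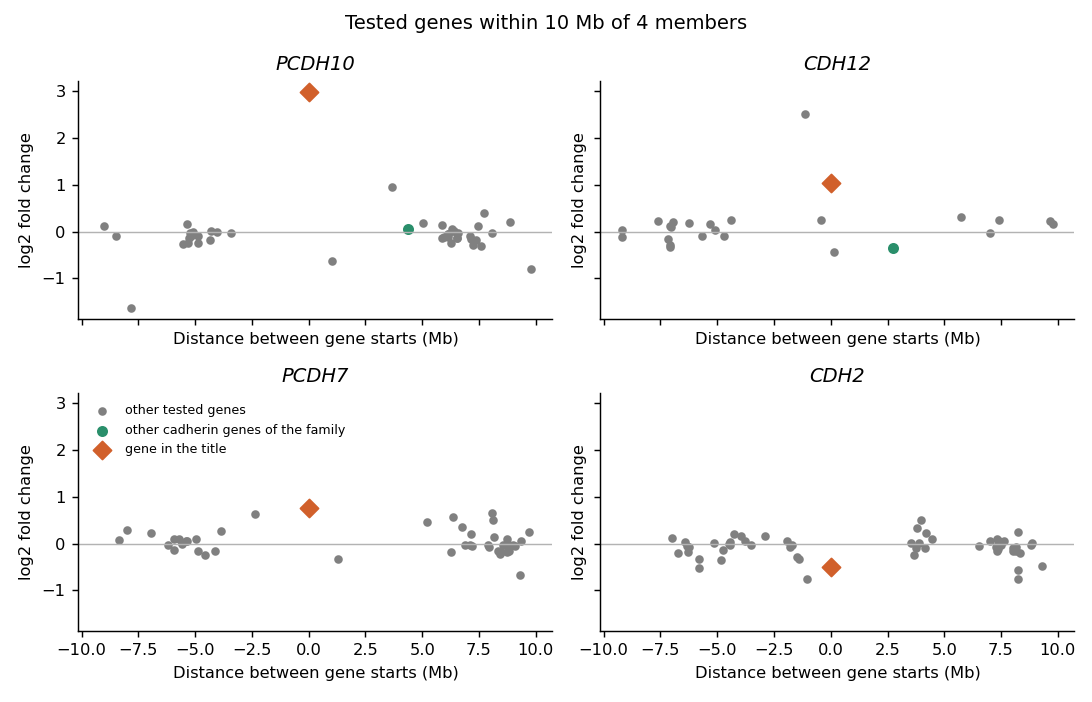
Log2 fold change of each tested gene within 10 Mb of PCDH10, CDH12, PCDH7 and CDH2, plotted by the distance between gene starts in Mb, with the named gene as an orange diamond and other members in green. PCDH10 (2.98) and PCDH7 (0.77) lie above all their neighbours in the window. CDH12 (1.03) lies above all but RP11-774D14.1 (2.50), which passed the filter on low counts only through the group where it is high. CDH2 (-0.50) lies among the lower values of its window, which reach -0.76.

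The catenins and other partners of the classical cadherins were read from a list of 14 genes, all of which were tested. Only PTPRM, a receptor phosphatase that associates with cadherins, passed, at 7.12, 7.60 and 6.84 CPM in the H295R-labelled libraries and 9.43, 10.4 and 10.6 in the others (log2 fold change 0.50, SE 0.110, adjusted p = 0.0432), beside 2.42% of all genes higher. PTPRM did not pass when any single library was left out, with adjusted p from 0.0530 (H295R replicate 1) to 0.182 (H295R-PM-Ptc+ replicate 3). CTNNB1, which encodes beta-catenin, had 1260 ± 168 CPM in the H295R-labelled libraries and 1180 ± 63.7 in the others (SD, n = 3 each, log2 fold change -0.09, adjusted p = 0.747). Nor did CTNNA1, which encodes alpha-catenin, pass (-0.02, adjusted p = 0.962). With the block, 8 of the 14 passed, beside 22.5% of all genes. JUP, which encodes plakoglobin and stands in the study's cadherin module (log2 fold change 0.27, adjusted p = 0.181 without and 0.00369 with the block), CTNND1 (0.13, 0.535 and 0.0318), CTNND2 (1.23 at 4 to 23 counts, 0.230 and 0.0184) and CTNNA3 (0.38, 0.426 and 0.0445) were added on the higher side. On the lower side were the neural alpha-catenin CTNNA2 (-0.51, adjusted p = 0.0518 without and 2.09e-05 with the block), which also passed with no filter, with DESeq2, without H295R replicate 1 and without replicate 1 of both groups, PKP4 (-0.23, 0.144 and 0.00287) and PTPRF (-0.23, 0.436 and 0.0221).

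Of 25 other genes with cadherin repeats, such as desmosomal, FAT and calsyntenin genes, 12 were tested and 4 passed, 2 in each direction, beside 2.42% of all tested genes higher and 1.32% lower. CLSTN2 and CLSTN3, calsyntenins of the postsynaptic membrane, were higher (log2 fold change 1.61, adjusted p = 0.00321, and 0.42, adjusted p = 0.0300). FAT4, which pairs with DCHS1 in planar polarity and Hippo signalling, was lower (-1.63, adjusted p = 0.0276), as was CDHR1, a cadherin of photoreceptors (-1.32, adjusted p = 0.00151). DCHS1 itself (-0.47) did not pass without the block (adjusted p = 0.128) but did with it (5.57e-05), with no filter, and without replicate 1 of both groups. When single libraries were left out, CLSTN2 and CDHR1 passed each time. CLSTN3 did not without H295R replicate 2 (adjusted p = 0.116) or 3 (0.105) or H295R-PM-Ptc+ replicate 2 (0.133) or 3 (0.154), and FAT4 passed only without H295R replicate 1 (0.00438), with 0.0658 to 0.0848 in the others. Of 6 repressors and regulators of CDH1 and CDH2, 4 were tested (SNAI2, ZEB1, ZEB2 and TWIST1) and none passed by edgeR, with 1 at an unadjusted p under 0.05 (SNAI2, lower, beside 7.67% of all genes), 1 by DESeq2 (SNAI2, beside 2.08%) and 0 by limma-voom. SNAI2 also passed with no filter and without H295R-PM-Ptc+ replicate 1, ZEB2 without H295R replicate 1, and both without replicate 1 of both groups. With the block, where 22.5% of all genes passed, SNAI2 (-0.33, adjusted p = 0.0632 without and 8.59e-04 with it) and ZEB2 (-0.26, 0.319 and 0.00234) were lower.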

How the data were processed

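RNA of 3 libraries labelled H295R and 3 labelled H295R-PM-Ptc+ was sequenced in 2x75 bp paired reads. The study's methods name a stranded mRNA kit and the labels a stranded total RNA kit with polyA RNA. The authors mapped reads to hg38 with STAR 2.4.0a, used featureCounts with Ensembl gene names to count fragments (sense strand, multiply mapped reads at their primary position) and deposited raw counts, not normalized or filtered. The submitters' processing notes give Subread 1.5.0-p3, whereas the study's methods name another release.

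All genes were tested together with edgeR 4.0.16 in R 4.3.3 (filterByExpr, TMM, glmQLFit and glmQLFTest, group as the only term, two-sided, Benjamini-Hochberg adjustment over all tested genes, threshold 0.05). CPM use TMM-scaled library sizes, and RPKM divide them by the exon length in the deposited table. Alternatives were DESeq2 1.42.0, limma-voom (limma 3.58.1), relative log expression factors, no filter, at least 10 counts in every library, a replicate block, leaving out each library, and, chosen after seeing the data, leaving out replicate 1 of both groups. The edgeR, DESeq2 and limma-voom fits with group as the only term were tested on simulated data. The fit with the replicate block was not tested in this way. The block takes same-numbered replicates as pairs, from the data and not from a stated design. Their deviations from the group means correlated at 0.497, 0.307 and 0.228, those of different-numbered replicates at -0.352 to 0.150. The pairing was plain for replicate 1 alone, since replicates 2 and 3 also correlated across numbers, at 0.150 and 0.109. Calls made with the block rest on this pairing, which was taken from the same libraries.

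All 35 members are named, with values per library for those that passed in either fit, the 5 of highest mean RPKM, CDH1 and the members in the study's cadherin module; of the other lists, genes that passed in either fit are named. The members and lists were chosen with earlier results of these data known. The study's own normalized values were used only to match columns, and its fold changes and p-values were not used.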

Additional observations from a re-analysis of the deposited data

How the results depend on the processing

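Set against 13 alternatives, the log2 fold changes of the 16 tested members kept their direction and side of the threshold in 183 cases, passed only in the alternative in 6, lost their call in 5 and changed sign in 12, none of these with an adjusted p under 0.05. The members that were higher numbered 3, with 2 to 3 when each library was left out in turn and 4 with the replicate block. With at least 10 counts in every library they were 2, since PCDH10 then had too few counts to test. The lower members numbered 0, with 0 to 1 when each library was left out, and 1 (CDH2) with no filter, with DESeq2, with the replicate block and without replicate 1 of both groups. The catenin partners that passed numbered 2 with no filter, 0 with at least 10 counts in every library, 2 with DESeq2, 8 with the replicate block, 2 without replicate 1 of both groups and 0 to 1 with each library left out. The other superfamily genes numbered 2 to 5 with each library left out. Over all genes the count was 624, and 1111 with no filter, 3758 with the replicate block, 2013 without replicate 1 of both groups and 219 to 810 with each library left out. The block changed the calls of CDH2 and CDH24 and no other member. With limma-voom the sign turned for CDH8 (-0.03) and PCDH11X (-0.05). With each library left out the log2 fold change ranged from -0.16 to 0.34 for CDH8, -0.56 to 0.37 for PCDH11X, -0.05 to 0.48 for PCDH20, -0.19 to 0.09 for CDH22, -0.21 to 0.05 for CDH11 and -0.17 to 0.02 for PCDH1. The cause of these moves was not tested. No setting moved the median log2 fold change of all genes by more than 0.01. Where an arm held 2 libraries, the spread was pooled over the groups.

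Depth limits the 19 untested members, of which 9 had at most 3 counts in every library, and the 7 tested ones with at most 64 counts.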

Other observations

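Replicate 1 was the lowest library of both groups, in CPM, for 10 of the 16 tested members (CDH2, CDH8, CDH11, CDH12, CDH22, PCDH1, PCDH7, PCDH11X, PCDH18 and PCDH20) and was the highest of both groups for CDH10 alone. For CDH10 these were 4.56 CPM in the library labelled H295R replicate 1 against 3.35 and 3.28 in replicates 2 and 3, and 3.56 against 2.65 and 2.51 in the libraries labelled H295R-PM-Ptc+. What set the replicates apart was not tested, and the labels name no batch.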
